A study of Saccharomyces cerevisiae with 6 samples.

Results

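The genes described here encode the yeast proteasome and RPN4, the transcription factor that activates them, in 2 strains of Saccharomyces cerevisiae. Members were taken by gene name from the authors' deposited table (the PRE, PUP, RPN and RPT names, SCL1, SEM1, UMP1, ECM29 and BLM10). That gave 36 genes. A further 2 were found by systematic name, BLM10 (YFL007W), which the table lists as BLM3, and RPN14 (YGL004C), which it lists without a gene name. The resulting 38 genes, of 5346 chromosomal genes tested, each had a single gene model, and none overlapped another model of the table. They comprise 33 subunits of the core, base and lid, 4 assembly and associated factors, and RPN4.

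The reference strain was CEN.PK113-7D (genotype ACS1 ACS2). The mutant IMY104 (acs1Δ acs2Δ) lacks both acetyl-CoA synthetase genes and carries the plasmid pUDC140 with genes of Enterococcus faecalis: pdhA, pdhB, aceF and lpd for a pyruvate dehydrogenase, and lplA and lplA2 for lipoylation. The strains therefore differ by the deletions and by the plasmid together, and what each contributes cannot be told apart. Each strain was grown in 3 independent aerobic, glucose-limited chemostats at 30 °C, pH 5.0 and a dilution rate of 0.10 per h, on 7.5 g/L glucose with 500 ng/mL lipoic acid in the medium of both. In the table the mutant's libraries carry a name that includes another CEN.PK strain, so further differences in strain background cannot be told apart from the engineered ones.

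The deposited data hold 1 FPKM value (fragments scaled to model length and library total) per strain and gene, combined by the authors over the 3 libraries. No SD or value per library can be given, and the depth is unknown. Calls are the authors' own, at a q-value under 0.05 over all models tested. In the authors' deposited table ACS1 stood at 0.0806% and ACS2 at 0.0362% of their CEN.PK113-7D level in IMY104. Because FPKM is relative to the total of each library, a change in the total mRNA per cell cannot be seen. The libraries are of whole cultures, so less mRNA of a gene per cell and fewer cells with that mRNA cannot be told apart. Changes are given as log2 fold changes with IMY104 in the numerator, so that negative values mean a lower level in the mutant. Over all 5346 genes their median was 0.0082, with quartiles of -0.11 and 0.14.

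The proteasome degrades proteins marked with ubiquitin. Its core particle is a barrel of alpha rings and beta rings, with the protein-cutting sites inside on beta subunits. The regulatory particle at its end has a base, whose ATPases unfold the substrate, and a lid, which removes ubiquitin. In yeast the subunit genes are activated together by Rpn4, which binds the proteasome-associated control element, with the sequence GGTGGCAAA, upstream of them. Rpn4 is itself a very short-lived substrate of the proteasome, so that its protein accumulates when proteasome capacity falls short.

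The element is shown first because it is what most of these promoters share. Both strands were searched for GGTGGCAAA in a window from 250 bases before to 50 bases after the start codon in the S288C reference genome (RefSeq, assembly R64). That genome is not the authors' CEN.PK assembly. The exact element was present in 28 of the 37 genes other than RPN4 (75.7%), against 72 of all 6002 windows (1.20%). It was present in 27 of the 33 core, base and lid subunits and in ECM29. The sites below are from the genes with an exact element that had the 6 lowest and the 2 highest changes, with 10 bases on either side. Capitals mark the element, read on the strand on which it is GGTGGCAAA.
PRE10 (R64 chrXV:1018856-1018884, minus strand): cctctaaatcGGTGGCAAAaataagaaag
RPN12 (R64 chrVI:252398-252426, minus strand): aatttcaatgGGTGGCAAAtaatgtgtag
RPN3 (R64 chrV:196843-196871, minus strand): ctctttcttgGGTGGCAAAtgtttttcgt
RPT3 (R64 chrIV:1261495-1261523, plus strand): ctgaaagtaaGGTGGCAAAatagtaaatc
PRE3 (R64 chrX:435035-435063, plus strand): aacggaatccGGTGGCAAAaaagggaaaa
ECM29 (R64 chrVIII:39943-39971, plus strand): gccttttcttGGTGGCAAAaaaaaggtac
PRE6 (R64 chrXV:255218-255246, minus strand): tttcccttccGGTGGCAAAagaatcttcg
RPN5 (R64 chrIV:190776-190804, plus strand): ttgacttttcGGTGGCAAAatgcaaaggg

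With any base at the seventh position (GGTGGCNAA) the search found 3 more subunits, all with GGTGGCGAA. They are shown because their changes lay close to 0.
SEM1 (R64 chrIV:1202007-1202035, plus strand): tagtgctatgGGTGGCGAAcgtggtgggc
RPN10 (R64 chrVIII:498968-498996, minus strand): tgtaaattccGGTGGCGAAaacccgcctg
RPN13 (R64 chrXII:965656-965684, minus strand): ttattcgcgaGGTGGCGAAagctttgcta

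RPN4 itself had the largest change of the 38 genes. It lies on chromosome 4, 414056 to 415651 on the minus strand, in the authors' CEN.PK assembly, and its model of 1596 bp is coding sequence. In the authors' deposited table its level was 291 FPKM in CEN.PK113-7D and 189 FPKM in IMY104. RPN4 fell by 35.2% in IMY104, a log2 fold change of -0.63 (authors' q = 0.00047). A log2 fold change lower than that of RPN4 was seen in 2.45% of all genes. Its p-value was 5e-05, the floor of the deposited values, which other genes such as BLM10 share. It therefore does not rank RPN4 above them. Dividing the log2 fold change of RPN4 by the deposited test statistic gives an error of 0.147. No element, exact or with any seventh base, was found in the window of RPN4.

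Most genes of the proteasome had slightly lower values in IMY104, and few of them passed the test. The 37 genes other than RPN4 had a median change of -0.17 on the log2 scale, a level 10.9% below CEN.PK113-7D, with quartiles of -0.21 and -0.12. The authors' test called 3 of the 37 lower and none higher (8.11% lower), against 10.9% of all genes called lower and 11.4% called higher, so the share called was near the background. At q under 0.01 the count was 1 (8.40% of all genes lower), and at q under 0.1 it was 8 of 37 (21.6%, against 13.0% of all genes). When the deposited test statistic was read as a normal deviate and adjusted by the Benjamini-Hochberg method, none of the 37 was called (7.41% of all genes lower), 4 had an unadjusted p under 0.05, and RPN4 stayed called. The log2 fold change was below 0 in 36 of the 37 genes (97.3%), against 47.7% of all genes. At an unadjusted p under 0.05, 15 of 37 were lower and none higher (40.5% lower), against 15.0% of all genes lower. The genes were measured in the same 6 libraries, so their changes are not independent of each other and these counts carry no p-value.

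**Figure D1:**
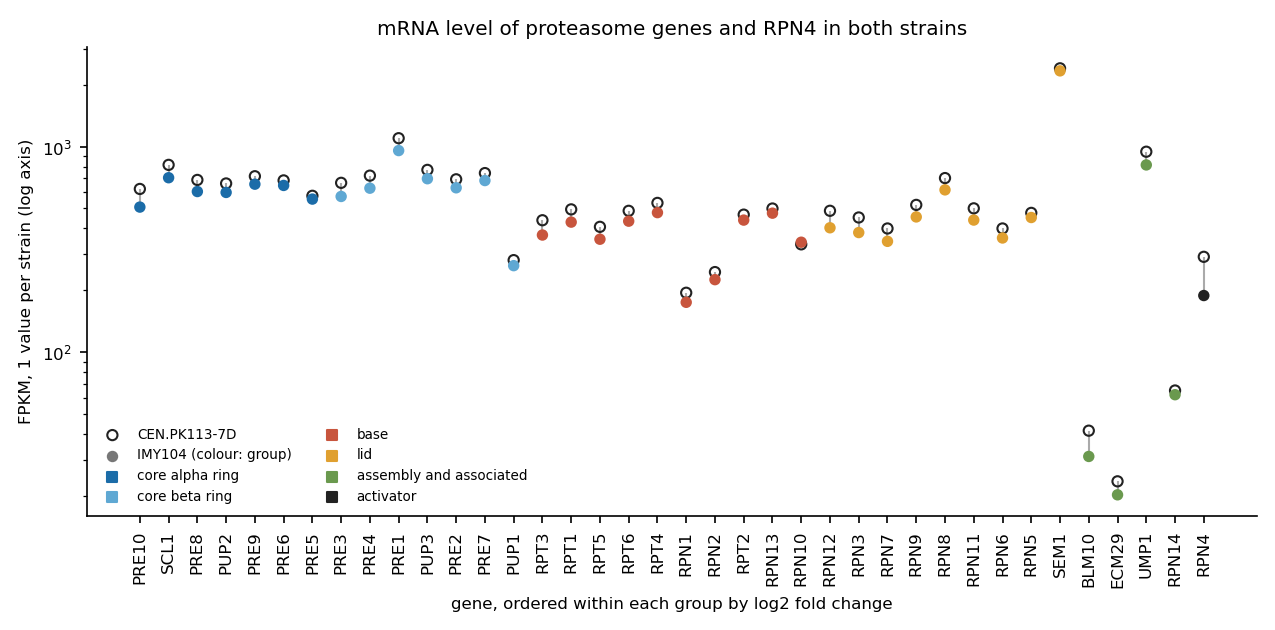
The level of each of the 38 genes in CEN.PK113-7D (open circles) and IMY104 (filled circles, coloured by group), in FPKM on a log axis, with 1 value per strain and a line between the strains. RPN4 has the widest gap, from 291 to 189 FPKM, and RPN10 is the gene whose filled circle lies above the open one.

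An approximate error for each gene can be read from the authors' p-value, as the log2 fold change divided by the normal deviate of that p. For 36 of the 37 genes this error lay between 0.092 and 0.100, with a median of 0.097; BLM10, with p at the floor of the table, was left out. Dividing by the deposited test statistic instead gave a median error of 0.131, from 0.046 (SEM1) to 0.158 (RPN2), with 0.155 for BLM10. The SD of the log2 fold changes among the 33 core, base and lid subunits was 0.071. The spread among subunits was thus smaller than the median error of a single gene by either reading. Over all genes the smallest change called was 0.23 on the log2 scale, above the size of the median proteasome change. RPN4 lay -0.46 from the proteasome median on the log2 scale. That gap was not tested, since no value per library is given.

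**Figure D2:**
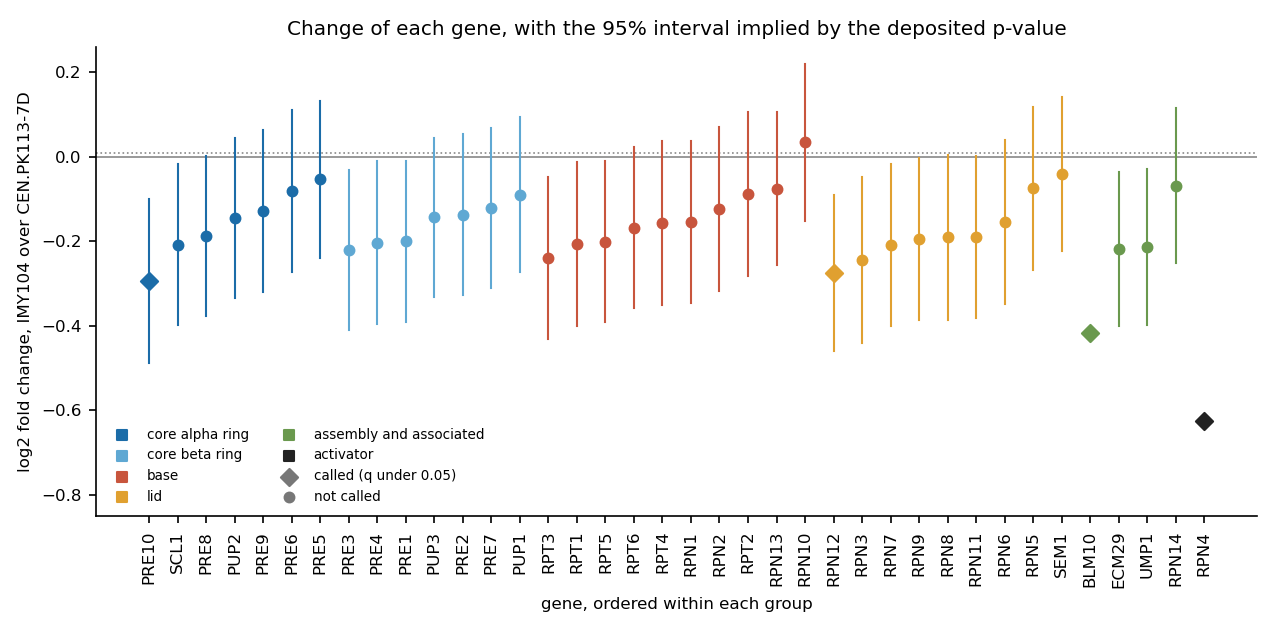
Change of each gene on the log2 scale (IMY104 relative to CEN.PK113-7D), by group, with the 95% interval implied by the deposited p-value; diamonds are genes called at q under 0.05, and BLM10 and RPN4 have no interval because their p is at the floor. The solid line is 0 and the dotted line the median of all genes, 0.0082; the subunits other than RPN10 lie between -0.29 and -0.041.

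In the core particle all 14 subunits had values below 0 (median log2 fold change, -0.14). The test called 1 of the 14 lower, against 10.9% of all genes. PRE10, an alpha ring subunit (YOR362C, chromosome 15, 1017819 to 1018685, minus strand), had 622 FPKM in CEN.PK113-7D and 508 FPKM in IMY104 in the authors' deposited table. PRE10 fell by 18.4%, a log2 fold change of -0.29 ± 0.099 (implied error; authors' q = 0.0175). With the test statistic read as a normal deviate, PRE10 had an error of 0.133 and a Benjamini-Hochberg adjusted p of 0.144. In the alpha ring the median was -0.15 over 7 subunits, and the other end of its range was PRE5, at 576 and 555 FPKM, a log2 fold change of -0.053 (q = 0.761). SCL1, another alpha subunit, had 815 and 706 FPKM and a log2 fold change of -0.21 (q = 0.115). PRE9, the one core subunit that yeast can live without, had 717 and 656 FPKM and -0.13 (q = 0.387).

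In the beta ring none of the 7 subunits was called, against 10.9% of all genes called lower and 11.4% called higher. The median change of these subunits was -0.14 on the log2 scale. At an unadjusted p under 0.05, 3 of the 7 were lower, against 15.0% of all genes. The catalytic subunits spanned the whole range of the ring. PRE3, which carries the caspase-like site, had 666 FPKM in CEN.PK113-7D and 572 FPKM in IMY104, a log2 fold change of -0.22 (q = 0.0843). PRE2, which carries the chymotrypsin-like site, had 693 and 630 FPKM and a log2 fold change of -0.14 (q = 0.342). PUP1, which carries the trypsin-like site, had 280 and 264 FPKM and a log2 fold change of -0.089 (q = 0.566). The implied 95% intervals of the 3 overlap. Per length, PUP1 had the lowest level of the core and PRE1, a structural beta subunit, the highest, at 1098 and 956 FPKM; the other 12 core subunits lay between 576 and 815 FPKM in CEN.PK113-7D.

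In the base no gene was called among 10, against 10.9% of all genes called lower and 11.4% called higher. The median change of the base was -0.16 on the log2 scale. The 6 ATPases RPT1 to RPT6, which form the unfolding ring, had a median of -0.18 and levels of 407 to 532 FPKM in CEN.PK113-7D and 354 to 477 FPKM in IMY104. RPT3 had the lowest change, from 438 to 371 FPKM, a log2 fold change of -0.24 (q = 0.0592), and RPT2 the highest of the ATPases, from 467 to 439 FPKM, at -0.088 (q = 0.6). RPN1 and RPN2, the large scaffold proteins that dock ubiquitin carriers and the lid, had the lowest levels of the base, 195 and 245 FPKM in CEN.PK113-7D, and log2 fold changes of -0.15 (q = 0.277) and -0.12 (q = 0.419).

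Of the other base subunits, RPN13, a ubiquitin receptor, had 500 and 474 FPKM and a log2 fold change of -0.075 (q = 0.636). RPN10, another ubiquitin receptor, had 335 FPKM in CEN.PK113-7D and 343 FPKM in IMY104, a log2 fold change of 0.034 with an implied 95% interval from -0.15 to 0.22 (q = 0.856). It was the only one of the 38 genes with a value above 0, and with the error from the test statistic its interval reached down to -0.22, past the proteasome median of -0.17.

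In the lid 1 of 9 subunits was called lower, against 10.9% of all genes. The median change was -0.19 on the log2 scale. RPN12 (YFR052W, chromosome 6, 251468 to 252292, plus strand), whose joining completes the lid before it docks on the base, had 487 FPKM in CEN.PK113-7D and 403 FPKM in IMY104 in the authors' deposited table. RPN12 fell by 17.3%, a log2 fold change of -0.27 ± 0.094 (implied error; authors' q = 0.0187). From the test statistic its error was 0.122 and its Benjamini-Hochberg adjusted p was 0.134. RPN3 stood next, from 452 to 382 FPKM, at -0.24 (q = 0.0619). RPN11, the enzyme that cuts ubiquitin chains off the substrate, had 501 and 439 FPKM and -0.19 (q = 0.159), and its partner RPN8 had 703 and 616 FPKM and -0.19 (q = 0.168). SEM1, a very small subunit that also serves in mRNA export, was at the other end with 2403 and 2336 FPKM and -0.041 (q = 0.820). Its model spans only 270 bp, and the FPKM level of such a short model is less certain than that of longer ones. The errors of its change did not show this. They were 0.093 from the p-value and 0.046 from the test statistic, below the proteasome medians of 0.097 and 0.131.

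Among the 4 assembly and associated factors 1 was called lower, BLM10, against 10.9% of all genes. It had the lowest change after RPN4. BLM10 encodes the large protein that can cap the core in place of the regulatory particle (YFL007W, chromosome 6, 122497 to 128928, plus strand). Its level was 41.5 FPKM in CEN.PK113-7D and 31.1 FPKM in IMY104 in the authors' deposited table. BLM10 fell by 25.1%, a log2 fold change of -0.42 (authors' q = 0.00047), and 5.42% of all genes had a lower value. From the test statistic BLM10 had an error of 0.155 and a Benjamini-Hochberg adjusted p of 0.0502. No exact element and no GGTGGCNAA was found in its window. ECM29, which ties the core to the regulatory particle, had 23.5 and 20.2 FPKM and a log2 fold change of -0.22 (q = 0.0735). UMP1, the chaperone that is enclosed in the maturing core and is its first substrate, had 944 and 814 FPKM and -0.21 (q = 0.0897). RPN14, a chaperone of base assembly, had 65.1 and 62.1 FPKM and -0.068 (q = 0.680).

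Genes with the exact element and genes without it were set side by side. The 28 members with the element had a median of -0.19 on the log2 scale, from -0.29 (PRE10) to -0.075 (RPN5). Of them 2 were called lower (7.14%, against 10.9% of all genes). The 9 members without it, RPN4 left out, had a median of -0.075, from -0.42 (BLM10) to 0.034 (RPN10), and 1 was called lower (11.1%). Both shares were near the background. The 9 are PUP1, PRE5, RPN8, RPN10, RPN13, SEM1, UMP1, RPN14 and BLM10. Among them BLM10, UMP1 and RPN8 lay below the median of the members with the element, and the others lay above it. The 3 with GGTGGCGAA, RPN10, SEM1 and RPN13, ranked 1, 2 and 6 from the top among the 38 log2 fold changes. Between them lay PRE5 and RPN14, with neither form of the element, and RPN5, with the exact one (ranks 3, 4 and 5). Values close to 0 were thus not particular to GGTGGCGAA. With GGTGGCNAA as the element, 31 members had it and a median of -0.17. The 6 without it had a median of -0.14, so the gap between the classes narrows when these 3 genes change class. The gap was not tested with either form of the element. In the members the first base of the element lay from position -183 to -84 counted from the start codon, with a median of -122, and in 20 of 28 it read on the strand of the gene.

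Outside the proteasome 44 windows held the exact element, and 40 of those genes were tested (ACS1, deleted in IMY104, is left out). Their median log2 fold change was -0.077, and 30 of the 40 lay below 0. The authors' test called 8 of the 40 lower (20%) and 2 higher, against 10.9% and 11.4% of all genes. The element of 6 of these genes is that of a proteasome gene in the shared upstream region, among them MPO1, next to SCL1. Without those 6, 7 of 34 were lower and 2 higher. In 14 of the 34 genes the element lay within the range of positions seen in the members. Some of the 34 genes share an element with each other, such as GSF2 and RSE1.

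The called genes of this class are not all genes of protein degradation. SDH9, a homolog of the succinate dehydrogenase flavoprotein whose reads may be shared with SDH1, had 53.2 and 26.7 FPKM and fell with a log2 fold change of -0.99 (q = 0.00047). SGT2, a co-chaperone that receives tail-anchored membrane proteins, had 1100 and 738 FPKM and fell with -0.58 (q = 0.00047). UBA1, the ubiquitin-activating enzyme, had 243 and 189 FPKM and fell with -0.37 (q = 0.00126). MPO1, ATG14, AHC2, UBI4 and GSF2 fell with -0.36, -0.32, -0.29, -0.27 and -0.25. COA6, an assembly factor of cytochrome oxidase, and MEF2, a mitochondrial translation factor, rose with 0.36 (q = 0.00126) and 0.34 (q = 0.00087). In COA6 and ATG14 the match lies inside the coding sequence. The match of GSF2 lies inside the coding sequence of the neighbouring gene RSE1. The elements of the 3 lowest genes and of the ubiquitin gene UBI4 are given for comparison with those of the subunits.
SDH9 (R64 chrX:355850-355878, plus strand): ggttccacaaGGTGGCAAAaaaggcaatc
SGT2 (R64 chrXV:340057-340085, plus strand): cattttatatGGTGGCAAAatttgggatt
UBA1 (R64 chrXI:39024-39052, plus strand): aaaaggtgcgGGTGGCAAAtaaaggtaaa
UBI4 (R64 chrXII:65349-65377, plus strand): cgaattcaaaGGTGGCAAAacccggagcc

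**Figure D3:**
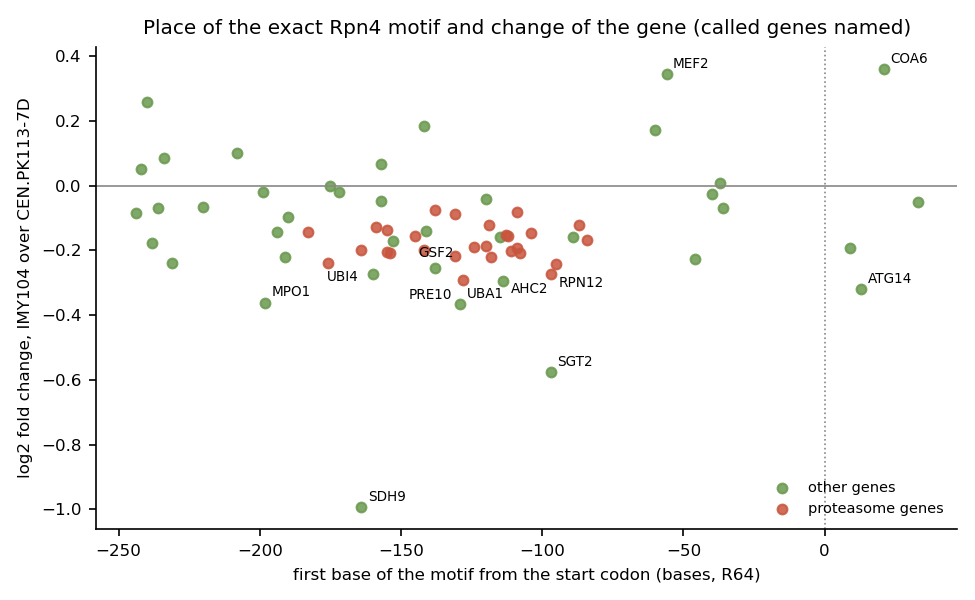
Position of the first base of the exact element relative to the start codon (x, bases, R64) and log2 fold change of the gene (y), for proteasome genes and other tested genes that hold it, with called genes named. The 28 proteasome genes lie between -183 and -84 and within a narrow band of change, while the other genes spread over the window and from -0.99 to 0.36.

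**Figure D4:**
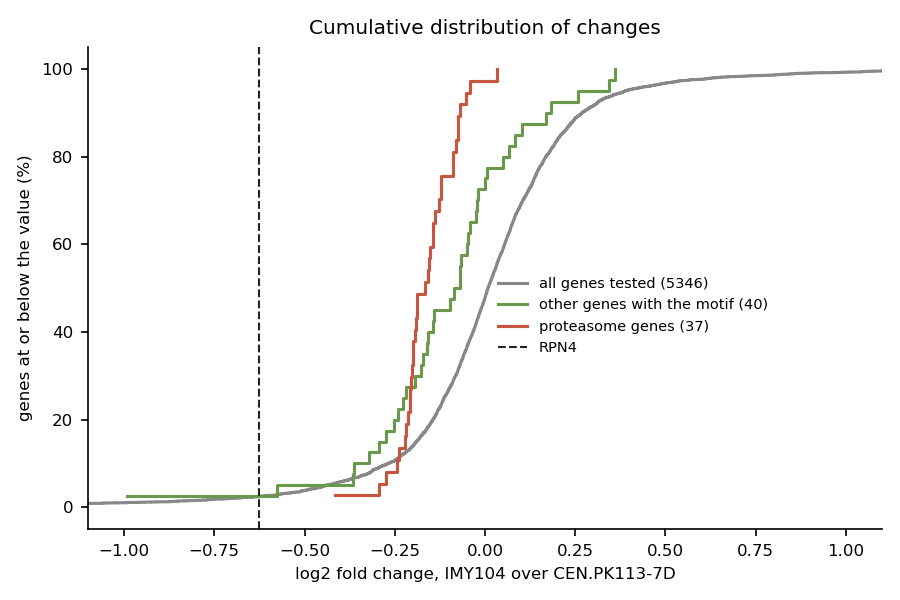
Cumulative share of genes (y, percent) at or below each log2 fold change (x) for all 5346 genes tested, the 40 other genes with the exact element and the 37 proteasome genes, with RPN4 as a dashed line. The x axis is limited to the central range, and the proteasome curve is steep around -0.17. At the median the other genes (-0.077) lie between the proteasome genes (-0.17) and all genes (0.0082). In the lower tail the curves cross, and the other genes reach down to -0.99 and the proteasome genes to -0.42.

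Other genes of ubiquitin-dependent degradation were followed in 7 lists with 34 of 36 genes in the table (IRC25 and RPL40B were not analysed here). In all, 5 of the 34 fell (14.7%, against 10.9% of all genes) and none rose, a share close to the background. Their median log2 fold change was -0.10. In the list of ubiquitin supply 3 of 6 genes fell, 1 of them with an uncertain value, and differences between lists were not tested. Besides UBA1, UBC5, a ubiquitin-conjugating enzyme of the stress response, had 750 and 592 FPKM and fell with -0.34 (q = 0.00163). Its close paralog UBC4 had 854 and 781 FPKM and -0.13 (q = 0.368), and reads of the pair can be shared. UBI4, the stress-induced polyubiquitin gene, had 3182 and 2632 FPKM and fell with -0.27 (q = 0.0305). Its model covers 462 of 1146 bp and its repeats resemble the ubiquitin part of RPL40A and RPS31, so this value is uncertain. RPS31, a fusion of ubiquitin with a ribosomal protein, was at the upper end of the list with 8389 and 8250 FPKM and -0.024 (q = 0.915).

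Among the carriers and the Cdc48 route, which deliver ubiquitinated proteins, 1 of 8 genes was called lower (12.5%, against 10.9% of all genes). DDI1, a shuttle protein, had 217 and 178 FPKM and fell with -0.29 (q = 0.0157). DSK2, another shuttle, was at the other end at 50.4 FPKM in both strains (-0.00056, q = 0.999). CDC48, the ATPase of the route, had 422 and 382 FPKM and a log2 fold change of -0.14 (q = 0.352). Of 7 other assembly chaperones 1 was called lower (14.3%, against 10.9% of all genes). It was TMA17, a chaperone of base assembly that stress induces, which fell from 1695 to 1409 FPKM with -0.27 (q = 0.0349). The highest was ADD66, a chaperone of core assembly, at 130 and 150 FPKM and 0.21 (q = 0.0871). The assembly list had a median of -0.027, close to that of all genes.

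None of the 4 genes for Rpn4 turnover and none of the 4 transcription factors that act on RPN4 was called. Of all genes 10.9% were called lower and 11.4% higher. In the turnover list MUB1, a partner of the Ubr2 ubiquitin ligase, had 51.5 and 44.9 FPKM and -0.20 (q = 0.116), and RAD6, the conjugating enzyme, had 207 and 210 FPKM and 0.016 (q = 0.941). UBR2 was split into several models, the longest with 4.64 and 4.11 FPKM, so its value of -0.17 (q = 0.300) is less certain. Of the factors, YAP1, the activator of the oxidative stress response, had 259 and 221 FPKM and -0.23 (q = 0.0775). Its window holds the exact element. HSF1, the heat shock factor, had 52.9 and 55.4 FPKM and 0.067 (q = 0.683). mRNA levels do not report the activity of these factors. The proteasome-bound enzymes UBP6, HUL5 and UFD4, which trim or extend ubiquitin chains, had log2 fold changes of -0.10, -0.022 and -0.11. STS1, needed to bring proteasomes to the nucleus, and CUE5, a receptor for their removal by autophagy, had 0.023 and -0.026. None of these 5 was called.

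**Figure D5:**
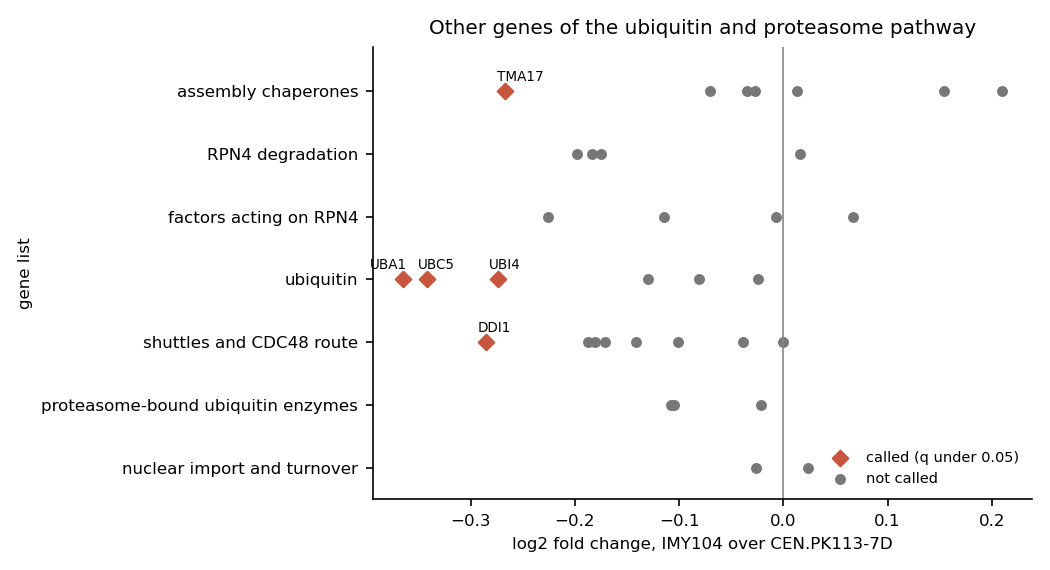
The log2 fold change (x) of 34 genes in 7 lists of the ubiquitin and proteasome pathway (rows), with 1 point per gene; diamonds are genes called at q under 0.05. The 5 called genes, UBA1, UBC5, DDI1, UBI4 and TMA17, lie between -0.37 and -0.27.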

How the data were processed

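RNA-seq libraries of 6 chemostat cultures, 3 per strain, were summarised by the authors as 1 FPKM value per strain, per the file headers. The authors' deposited table also gives a log2 fold change, a signed fold change and test statistic (scores), a p-value and a q-value. The submitters' processing notes name Cuffdiff, Cufflinks, SAMtools 0.1.7-r510, BWA 0.5.9-r16 and CASAVA 1.8.2, without roles. For the genome build and the scaling no source used here gives details. No protocol step marks the strand.

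After 5447 blank lines were dropped, 5479 models remained and 5463 had been tested. The plasmid genes, ACS1 and ACS2 were left out, and the longest model per systematic name was kept. Of 5361 names, 5357 matched assembly R64. Of the 38 member models, 37 had the R64 gene length. Deposited q-values matched recomputed Benjamini-Hochberg values within 1e-06. Tests per library, planned if values per library were given, could not be run. Approximate errors were computed from p above the floor and under 0.9 and, separately, from the test statistic. The readings differ, and intervals span 1.96 errors from p unless stated. R64 coordinates are not those of the authors' assembly. Python 3.11.15, pandas 2.3.3 and scipy 1.17.1 were used. Members and lists were chosen with earlier results of these data known. Named genes were RPN4, every called member, the extremes of each group or list, and further members by role, chosen after their values were seen.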

Additional observations from a re-analysis of the deposited data

How the results depend on the processing

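The number of proteasome genes called lower, RPN4 left out, was 3 and depended on the threshold. It was 1 (BLM10) at q under 0.01, 8 at q under 0.1 (PRE3, RPT3, RPN3, ECM29 and UMP1 in addition) and 15 at an unadjusted p under 0.05. In an alternative chosen after seeing the data, the deposited statistic was read as a normal deviate and adjusted by the Benjamini-Hochberg method, and 0 of 37 genes were called, with 4 at an unadjusted p under 0.05, while RPN4 stayed called (q = 0.00031); the cause was not tested. The count was also 3 with genes of at least 10 FPKM, models of at least 300 bp or the model with the highest FPKM. It could not have moved under these settings, which left the authors' calls as they were. Each member had a single model and more than 10 FPKM. The only member model under 300 bp was that of SEM1, which was not called. With members by table name alone the count was 2. The median log2 fold change of the 37 genes lay between -0.18 and -0.16 with a pseudocount of 1 or 5 FPKM, centring on all genes, RPN4 counted in, or core, base and lid subunits alone, and RPN4 kept its direction in each alternative run on it and its call in each that gave calls. Calls could not be recomputed with a pseudocount or centring, since they are the authors' own. No paired analysis was possible because the table holds 1 value per strain, and no library could be left out.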

Other observations

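The deposited p-values and statistics differ for the same gene. PRE10 has a statistic of -2.21, whose two-sided normal tail is 0.0274, against the deposited value of 0.00315. Over all 5346 genes, 396 were lower at an adjusted p under 0.05 from the statistic (7.41%) against 583 by the deposited q-values (10.9%). The error implied by the deposited p-value was nearly the same for proteasome genes of very different level. It was 0.093 for ECM29 at 23.5 FPKM in CEN.PK113-7D, 0.095 for UMP1 at 944 FPKM and 0.093 for SEM1 at 2403 FPKM. The way the authors' p-values were drawn is not stated in the labels or headers.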
